A study of Mus musculus with 30 samples.

Results

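The mouse genes Mtus1, Cmya5, Igfn1, Padi2, Gpd1, Lctl, Nup210, Trim7, Traf3ip3 and Sohlh2 were followed here through all 30 libraries. These 10 of 30284 genes were chosen by their measured expression in C2C12 myotubes at day 4 of differentiation, where they had been reported higher on patterned than on unpatterned gelatin, so their day 4 levels on gelatin are given as a description, with no test. All 10 symbols were found, and all 10 passed the filter on low counts in the fits of the C2C12, the primary and all 30 libraries. C2C12 is an established line of mouse myoblasts, used here up to passage 8, and it fuses into multinucleated myotubes in medium with little serum. C2C12 cells were sequenced on gelatin molded with 10 µm lanes and 10 µm gaps (patterned), on flat gelatin (unpatterned) and on plastic, each at day 4 and day 7 of differentiation, and on plastic at day 0. Primary myoblasts, isolated from the hindlimb muscles of 3 C57/Bl6J mice aged 8 weeks, were sequenced on patterned gelatin at days 4 and 7 and at day 0, where their label gives plastic and the methods name dishes coated with extracellular matrix gel. That makes 10 groups of 3 libraries. Myotube cultures were briefly trypsinised before RNA extraction to enrich for myotubes, and all C2C12 cultures come from 1 line. The study describes more than 1 batch of C2C12 cells and reports that the single genes regulated often differed between batches. The sample titles used here name no batch. The labels do not say which mouse gave which primary library.

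In muscle, several of these genes belong to the machinery that holds or supplies the contractile apparatus. The Z disc anchors the thin filaments of neighbouring sarcomeres, and it is tied to the cell membrane by costameres and to the nuclei by desmin and microtubules. Cmya5 encodes myospryn, a large protein that binds desmin and alpha-actinin, and Igfn1 encodes a protein of immunoglobulin and fibronectin domains that is found at the Z disc. Mtus1 encodes a microtubule-associated scaffold protein, and Nup210 a membrane-anchored protein of the nuclear pore known to be switched on during myogenic differentiation. Gpd1 is the cytosolic glycerol 3-phosphate dehydrogenase, which links glycolysis to lipid synthesis and to the mitochondrial electron shuttle. Trim7 is a ubiquitin ligase that binds glycogenin, the primer of glycogen, Padi2 converts arginine residues of proteins to citrulline, and Lctl is a member of the klotho family. Traf3ip3 binds the signalling adaptor TRAF3 and is best known from leukocytes, and Sohlh2 is a helix-loop-helix transcription factor best known from germ cells.

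Promoters of 8 of the 10 genes were given in the RefSeq table (GRCm38.p6), 9 promoters in all, each from 250 bases before the transcription start to 50 bases after it. The 4 that follow are shown because they belong to genes that differed by substrate at day 7, in the order in which those genes are described, with every CANNTG in capitals. CANNTG is the E-box, the core letters read by MyoD, myogenin and other helix-loop-helix factors, and it was searched on both strands.
Cmya5, chr13:93144675-93144974, minus strand: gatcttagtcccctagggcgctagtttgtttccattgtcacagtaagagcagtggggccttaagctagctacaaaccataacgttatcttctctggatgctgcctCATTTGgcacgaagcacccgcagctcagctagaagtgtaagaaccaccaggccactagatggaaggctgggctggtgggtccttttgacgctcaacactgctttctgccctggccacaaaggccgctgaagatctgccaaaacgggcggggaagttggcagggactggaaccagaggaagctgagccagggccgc
Igfn1, chr1:136006293-136006592, minus strand: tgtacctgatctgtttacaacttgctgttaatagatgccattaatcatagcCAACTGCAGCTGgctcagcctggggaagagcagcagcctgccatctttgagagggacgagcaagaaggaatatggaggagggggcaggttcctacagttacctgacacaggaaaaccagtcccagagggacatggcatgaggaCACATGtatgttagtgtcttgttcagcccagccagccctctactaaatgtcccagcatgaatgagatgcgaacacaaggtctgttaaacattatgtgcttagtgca
Trim7, chr11:48837221-48837520, plus strand: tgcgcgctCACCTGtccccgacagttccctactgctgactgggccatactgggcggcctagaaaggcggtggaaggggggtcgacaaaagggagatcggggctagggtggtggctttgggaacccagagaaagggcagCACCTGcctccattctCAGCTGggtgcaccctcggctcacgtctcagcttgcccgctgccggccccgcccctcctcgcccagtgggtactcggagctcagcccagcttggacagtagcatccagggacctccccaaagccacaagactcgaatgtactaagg
Lctl, chr9:64116897-64117196, plus strand: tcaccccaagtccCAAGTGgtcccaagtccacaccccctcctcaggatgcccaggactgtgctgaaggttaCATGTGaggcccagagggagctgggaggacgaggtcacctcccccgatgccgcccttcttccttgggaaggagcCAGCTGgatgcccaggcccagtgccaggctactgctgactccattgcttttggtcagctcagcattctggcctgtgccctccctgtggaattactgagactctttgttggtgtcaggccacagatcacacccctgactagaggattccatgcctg
The Cmya5 promoter held 1 match and each of the other 3 printed promoters held 3 matches. The other Trim7 promoter (chr11:48825888-48826187), which is not printed, held 1 match. A CANNTG was found in 7 of the 9 promoters, and in 72.3% of 32851 promoters of the same length. The variant CAGCTG, which is a special case of CANNTG, was found in 3 of the 9, namely those of Igfn1, Lctl and the Trim7 promoter printed here, and in 16.3% of all promoters. No MEF2 motif and no CArG motif was found in the 9, against 3.19% and 1.63% of all promoters. These are matches of letters in a 300 base window and not mapped binding sites.

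Libraries held 13.1 M to 59.4 M estimated counts, with a median of 27.3 M. The shallowest were patterned day 7 C2C12 libraries 2 and 3, with 16.8 M and 13.1 M. The 12 myotube markers summed to 12460 to 24870 TPM (a relative transcript level, corrected for transcript length and depth) in the myotube libraries and to 1228 to 3535 TPM in the day 0 libraries, and all 12 had a mean above 1 TPM in every myotube group. Primary library 3 stood apart at each time point: its myotube marker Ckm was at 14.1 TPM at day 7, against 777 and 574 TPM in primary libraries 1 and 2. Most values resting on primary cells are therefore also given without the 3 libraries numbered 3, an alternative chosen after seeing the data. In these bulk libraries, for every level given here, fewer cells of a type and less RNA per cell cannot be told apart.

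At day 4, the time point that chose them, the 10 genes were between 0.53 (Mtus1) and 1.09 (Cmya5) higher on the log2 scale on patterned than on unpatterned gelatin. Their differences ranked 77 to 438 of 14852 genes. For all 10 the 3 patterned libraries lay above the 3 unpatterned ones in TPM, as did those of 9.99% of all genes tested, and nothing is read from this count. The Z disc gene Cmya5 was at 2.38, 3.16 and 2.66 TPM on patterned gelatin, against 1.17, 1.12 and 1.46 TPM on unpatterned gelatin. Igfn1 was at 52.5, 61.6 and 58.0 TPM on patterned gelatin and at 29.5, 29.6 and 33.9 TPM on unpatterned gelatin. In both genes every patterned library was well clear of every unpatterned one. Mtus1, with the smallest difference, was at 33.5, 44.2 and 40.8 TPM on patterned gelatin, against 32.2, 26.4 and 22.8 TPM on unpatterned gelatin, so that its groups only just parted.

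Set against plastic at day 4, the same genes did not form 1 pattern. Cmya5 was at 0.644, 0.565 and 0.835 TPM on plastic, and its log2 fold change was 1.83 for patterned gelatin over plastic and 0.74 for unpatterned gelatin over plastic. Gpd1 was at 3.51, 5.13 and 5.03 TPM on plastic, with log2 fold changes of 1.31 and 0.57 in the same order. Both genes were thus highest on patterned gelatin, intermediate on flat gelatin and lowest on plastic. Igfn1 and Lctl took another order. They were about as high on plastic as on patterned gelatin and lowest on flat gelatin. Igfn1 had a log2 fold change of -0.00 for patterned gelatin over plastic and of -0.86 for unpatterned gelatin over plastic. For Lctl these were 0.14 and -0.63. In Trim7, Traf3ip3 and Sohlh2 the log2 fold changes were 0.51 to 0.62 for patterned gelatin over plastic, and -0.10 to -0.00 for unpatterned gelatin over plastic, so that flat gelatin and plastic were close together. In 8 of the 10 genes, all but Igfn1 and Lctl, the patterned libraries lay above all plastic libraries in TPM, which held for 33.1% of all genes and is read against that share. On the TPM scale the median of all genes was itself 0.14 higher (log2) on patterned gelatin than on plastic at day 4, and 0.22 higher on plastic at day 7 than on plastic at day 4, whereas the fitted fold changes are on a scale where the median of all genes is near 0.

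**Figure D1:**
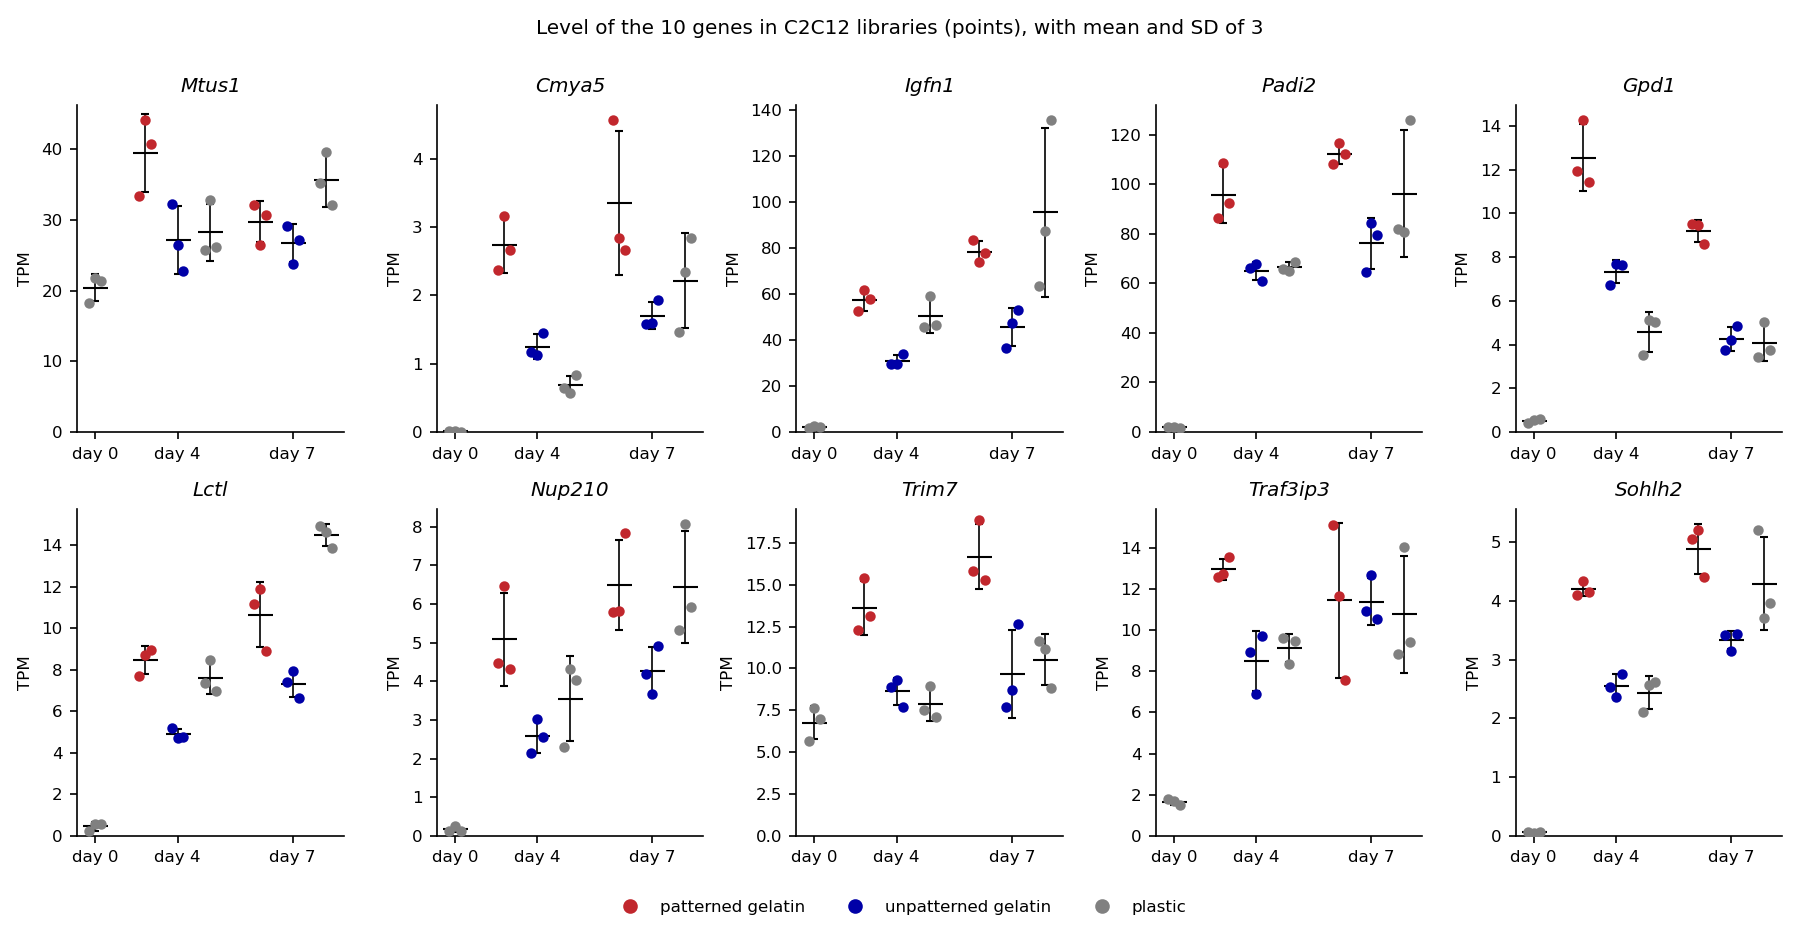
TPM of the 10 genes in each C2C12 library (points) by day and substrate, with the mean and SD of the 3 libraries of a group (bars). The day 4 patterned libraries lie above the day 4 unpatterned ones in all 10 panels, which is how the genes were chosen, and at day 7 the patterned libraries lie above the unpatterned ones in 8 panels, all but Mtus1 and Traf3ip3.

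The day 7 cultures, which did not enter the choice, were used to ask whether the difference between patterned and flat gelatin was also present later. Of the 10 genes, Gpd1, Trim7, Igfn1 and Cmya5 were higher on patterned than on unpatterned gelatin (edgeR quasi-likelihood test, adjusted p under 0.05) and none was lower, where 0.391% of 14852 genes were called higher and 0.148% lower, 0.539% in all. Before adjustment 7 of the 10 had p below 0.05, all higher on patterned gelatin, where 19.8% of all genes had such a p in either direction. The median log2 fold change of the 10 was 0.53, against 0.00 over all genes tested. In 8 of the 10 the patterned libraries did not overlap the unpatterned ones and were higher in TPM, which held for 7.52% of all genes.

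Among the Z disc genes, Cmya5 was at 4.57, 2.84 and 2.66 TPM on patterned gelatin, against 1.58, 1.60 and 1.93 TPM on unpatterned gelatin at day 7. The first patterned library was the highest, and all 3 lay above the unpatterned ones, with a log2 fold change of 0.98 ± 0.20 (SE, n = 3 each, adjusted p = 0.035, edgeR). Igfn1 was at 83.4, 73.7 and 78.0 TPM on patterned gelatin and at 36.6, 47.2 and 52.9 TPM on unpatterned gelatin. Its 3 patterned libraries were close together and far above the others, with a log2 fold change of 0.91 ± 0.17 (adjusted p = 0.019, edgeR). The call for Cmya5 was lost without any 1 of the 3 unpatterned libraries (adjusted p = 0.26, 0.055 and 0.080 without libraries 1, 2 and 3), and that for Igfn1 was lost without unpatterned library 1 (0.17) or 3 (0.057).

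The metabolic genes Gpd1 and Trim7 had the lowest adjusted p of the 10. Gpd1 was at 9.50, 9.45 and 8.59 TPM on patterned gelatin, against 3.74, 4.22 and 4.83 TPM on unpatterned gelatin. The lowest patterned library was well above the highest unpatterned one, and the log2 fold change was 1.06 ± 0.15 (adjusted p = 0.0023, edgeR). Trim7 was at 15.8, 18.9 and 15.3 TPM on patterned gelatin and at 7.67, 8.70 and 12.6 TPM on unpatterned gelatin. Here unpatterned library 3 came nearest to the patterned libraries, and the log2 fold change was 0.69 ± 0.10 (adjusted p = 0.0026, edgeR). Neither call was lost when any 1 library was left out, although Trim7 reached only 0.051 with limma on log2(TPM + 1).

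The other 6 genes did not pass the test. Sohlh2 was at 5.05, 5.20 and 4.40 TPM on patterned gelatin, against 3.41, 3.15 and 3.44 TPM on unpatterned gelatin, with a log2 fold change of 0.57 ± 0.13 (adjusted p = 0.063, edgeR). Lctl was at 11.2, 11.9 and 8.91 TPM on patterned gelatin and at 7.40, 7.93 and 6.65 TPM on unpatterned gelatin, with a log2 fold change of 0.50 ± 0.13 (adjusted p = 0.080, edgeR). In both genes the groups did not overlap, and both passed the threshold in DESeq2 (adjusted p = 0.026 for Sohlh2 and 0.011 for Lctl). Padi2, at 108, 117 and 112 TPM on patterned gelatin against 64.7, 84.5 and 79.3 TPM on unpatterned gelatin, and Nup210, at 5.80, 5.83 and 7.84 TPM against 4.19, 3.68 and 4.91 TPM, also kept apart in TPM. They had log2 fold changes of 0.35 ± 0.16 and 0.30 ± 0.14 (adjusted p = 0.23 and 0.26, edgeR). These are folds of 1.27 and 1.23 in counts, smaller than the gaps in mean TPM. The means were 112 against 76.1 TPM for Padi2 and 6.49 against 4.26 TPM for Nup210. TPM is corrected for transcript length and summed counts are not, and the part of this was not tested. Mtus1 was at 32.1, 26.5 and 30.7 TPM on patterned gelatin, against 29.1, 23.8 and 27.1 TPM on unpatterned gelatin, and these groups overlapped (log2 fold change 0.13 ± 0.08, adjusted p = 0.38, edgeR). The widest spread was that of Traf3ip3, at 15.1, 11.7 and 7.59 TPM on patterned gelatin and 10.9, 12.7 and 10.5 TPM on unpatterned gelatin, and its log2 fold change of 0.06 ± 0.13 changed sign without patterned library 1 (-0.06).

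The calls rest on a spread estimated from all 21 C2C12 libraries, which by the methods come from separate cultures of 1 line, so the p-values measure the spread between such cultures. Among these libraries are the day 4 gelatin libraries that chose the genes, so the spread used at day 7 is not independent of the choice. When the fit held only the 6 libraries compared, edgeR called none of 13942 genes, of which 1107 had p below 0.05 before adjustment, and over all alternatives the adjusted p ran up to 0.20 for Gpd1, 0.29 for Igfn1, 0.40 for Trim7 and 0.52 for Cmya5, all in that smaller fit. The lowest values, from 1.7e-08 for Gpd1 to 0.0023 for Cmya5, were those of DESeq2, which called 489 genes in all where edgeR called 80. Other measures moved with the pattern at day 7, among them the markers of the myotubes themselves. The 12 myotube markers summed to 16700 to 18460 TPM in the patterned libraries, against 14310 to 15690 TPM in the unpatterned ones. The share of counts in 13 mitochondrial genes was 0.894% to 1.91% in the patterned libraries, against 2.14% to 4.11% in the unpatterned ones. Their part in the differences of the 10 genes was not tested.

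**Figure D2:**
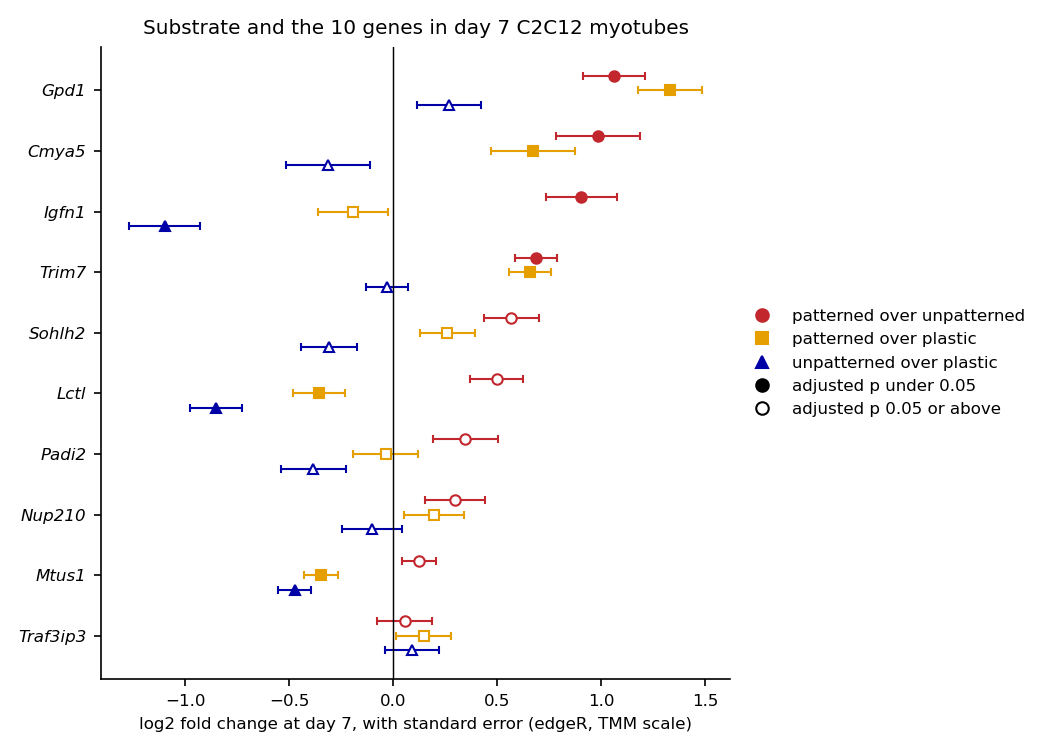
Log2 fold changes of the 10 genes in day 7 C2C12 myotubes, with standard errors, for patterned over unpatterned gelatin (circles), patterned gelatin over plastic (squares) and unpatterned gelatin over plastic (triangles). Filled symbols have an adjusted p under 0.05 (edgeR): Gpd1, Cmya5, Igfn1 and Trim7 for patterned over unpatterned gelatin, Gpd1, Trim7 and Cmya5 (higher) and Mtus1 and Lctl (lower) for patterned gelatin over plastic, and Igfn1, Lctl and Mtus1 (all lower) for unpatterned gelatin over plastic.

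Plastic, the usual culture surface, gave a different picture at day 7. On patterned gelatin Gpd1, Trim7 and Cmya5 were higher than on plastic and Mtus1 and Lctl were lower (edgeR, adjusted p under 0.05), where 13% of all genes were called higher and 10.9% lower. In TPM the patterned libraries lay above all plastic libraries for Gpd1 and Trim7 (11.9% of all genes) and below them for Mtus1 and Lctl (17.2%). The 3 comparisons of day 7 substrates share their libraries and are not independent of each other. Gpd1 was at 3.44, 5.03 and 3.76 TPM on plastic, below every patterned library, with a log2 fold change of 1.33 ± 0.15 (adjusted p = 6.9e-05) for patterned gelatin over plastic. Trim7 was at 11.6, 11.2 and 8.80 TPM on plastic, also below every patterned library (log2 fold change 0.66 ± 0.10, adjusted p = 0.00078). Cmya5 was at 1.46, 2.34 and 2.85 TPM on plastic and overlapped with the patterned libraries. Its log2 fold change of 0.67 ± 0.20 (adjusted p = 0.024) lost its call without plastic library 1 (0.11), without plastic library 2 (0.057) and without patterned library 1 (0.12).

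Lctl and Mtus1 were highest on plastic at day 7. Lctl was at 14.9, 14.6 and 13.9 TPM on plastic, above every gelatin library. It was lower on patterned gelatin (log2 fold change -0.35 ± 0.13, adjusted p = 0.047) and on unpatterned gelatin (-0.85 ± 0.13, adjusted p = 0.0011) than on plastic. Mtus1 was at 35.2, 39.7 and 32.1 TPM on plastic, with log2 fold changes of -0.35 ± 0.08 (adjusted p = 0.0078) for patterned gelatin and -0.47 ± 0.08 (adjusted p = 0.0029) for unpatterned gelatin. The call of Lctl on patterned gelatin was lost without plastic library 1 (adjusted p = 0.10) or 3 (0.081) and without patterned library 3 (0.14), and also with no filter on low counts (0.081) and in the fit of only the groups compared (0.24). That fit called none of the 10 genes for patterned gelatin over plastic. Over all alternatives the adjusted p of this comparison ran up to 0.075 for Gpd1, 0.12 for Trim7, 0.20 for Mtus1 and 0.22 for Cmya5. Of the 7 fibroblast markers, Col3a1 and Col1a1 were higher on patterned gelatin than on plastic (edgeR, adjusted p = 0.0039 and 0.016). The list summed to 728 to 1153 TPM on patterned gelatin, against 381 to 719 TPM on plastic. Of the 7 markers, 4 had a mean above 1 TPM in every day 7 C2C12 group, and Tcf21 was at 0 in all day 7 C2C12 libraries. The 6 proliferation markers summed to 137 to 170 TPM on patterned gelatin, against 157 to 230 TPM on plastic, and Mki67, Cdk1 and Top2a were lower on patterned gelatin (adjusted p = 0.0083, 0.015 and 0.017). Of the 12 myotube markers, Mymx, Des and Actn2 were higher on patterned gelatin and Ttn and Neb were lower. The mitochondrial share of counts was 0.894% to 1.91% on patterned gelatin, against 2.70% to 3.99% on plastic. The part of these measures in the differences of the 10 genes was not tested.

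On unpatterned gelatin 3 of the 10 genes, Igfn1, Lctl and Mtus1, were lower than on plastic and none was higher, where 0.976% of all genes were called lower and 2.48% higher. In TPM 5 genes, these 3 with Nup210 and Sohlh2, lay below all plastic libraries, as did 14.4% of all genes. For Nup210 the means were 4.26 TPM on unpatterned gelatin and 6.45 TPM on plastic, yet the log2 fold change fitted to counts was only -0.10. Igfn1 was at 63.5, 87.4 and 136 TPM on plastic, the widest spread of any of its groups, and even the lowest of these lay above the unpatterned libraries. Its log2 fold change was -1.10 ± 0.17 (adjusted p = 0.0015) for unpatterned gelatin over plastic and -0.19 ± 0.17 (adjusted p = 0.41) for patterned gelatin over plastic. The value for patterned gelatin was 0.10 without plastic library 3. The remaining 7 genes had log2 fold changes between -0.38 (Padi2) and 0.27 (Gpd1) on unpatterned gelatin over plastic, and none passed the test.

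Levels of single transcripts, which Kallisto divides among isoforms by estimation, showed which forms carried the day 7 values. Igfn1 has 3 transcripts in the annotation. The longest, Igfn1-203 (8989 bases, protein coding), was at 40.3, 34.6 and 33.3 TPM on patterned gelatin, against 16.7, 17.8 and 20.6 TPM on unpatterned gelatin. Igfn1-201 (3661 bases, protein coding) was at 28.0, 25.6 and 36.9 TPM on patterned gelatin and at 11.6, 20.96 and 19.7 TPM on unpatterned gelatin. Both coding forms were thus higher in every patterned library than in any unpatterned one. For Padi2 the levels were split otherwise. Its coding transcript Padi2-201 was at 78.5, 87.8 and 46.6 TPM on patterned gelatin, which overlapped with 52.2, 56.0 and 63.5 TPM on unpatterned gelatin. The short transcript Padi2-203 (681 bases, not annotated as coding) was at 29.0, 29.1 and 65.8 TPM on patterned gelatin, against 11.9, 28.5 and 15.8 TPM on unpatterned gelatin. Patterned library 3, the shallowest of all libraries, had the lowest Padi2-201 and the highest Padi2-203. For Mtus1, the longest form, Mtus1-205 (6426 bases), was at 2.48, 7.27 and 1.69 TPM on patterned gelatin, 5.60, 1.40 and 0.580 TPM on unpatterned gelatin and 8.91, 11.2 and 12.4 TPM on plastic at day 7. The plastic libraries were the highest in this form too.

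Genes that work beside the 10 were counted from lists chosen with earlier results of these data known. Between patterned and unpatterned gelatin at day 7, 0.391% of all genes were called higher and 0.148% lower. The 27 listed Z disc and costamere genes had a median log2 fold change of 0.29 for patterned over unpatterned gelatin at day 7. Of these 27, 4 were higher on patterned gelatin and none was lower. They were Actn2, which encodes the Z disc crosslinker alpha-actinin 2 (205 TPM on patterned gelatin and 112 TPM on unpatterned gelatin, log2 fold change 0.87 ± 0.11, adjusted p = 0.0023), Myoz1, a calcineurin-binding Z disc protein (1.12 ± 0.15, adjusted p = 0.0023), the intermediate filament gene Synm (0.89 ± 0.14, adjusted p = 0.0044), and Ky, whose product is a known partner of Igfn1. Actn2 is also 1 of the 12 myotube markers summed above. Of 16 glycogen genes tested beside Trim7, Pygm, the muscle glycogen phosphorylase, was the only one called (444 TPM on patterned gelatin and 242 TPM on unpatterned gelatin, log2 fold change 0.59 ± 0.12, adjusted p = 0.031). None of the 14 glycerol phosphate and triglyceride genes tested beside Gpd1, of 25 nuclear pore genes, of 3 peptidylarginine deiminases, of 5 klotho and FGF receptor genes, of 11 genes of the TRAF3 pathway, of 2 germ cell regulators or of 5 muscle TRIM ligases was called by edgeR in this comparison. Before adjustment p was below 0.05 for 2 of the glycerol phosphate and triglyceride genes, 4 of the nuclear pore genes, 0 of the deiminases, 2 of the klotho and FGF receptor genes, 5 of the TRAF3 pathway genes, 0 of the germ cell regulators and 2 of the muscle TRIM ligases, to be read against 19.8% of all genes. Of 21 microtubule genes only Pcnt, a centrosome scaffold, was higher (0.39 ± 0.08, adjusted p = 0.039). In the lists with a called gene, unadjusted p was below 0.05 for 11 of the 27 Z disc genes, 5 of the 16 glycogen genes and 3 of the 21 microtubule genes. These counts cover both directions and are read against the same 19.8%.

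Between patterned gelatin and plastic, 10 of the 27 listed Z disc and costamere genes were higher and 2, Ttn and Nebl, were lower. Over all genes 13% were called higher and 10.9% lower. Ky was at 1.00 TPM on patterned gelatin and at 0.0579 TPM on plastic (means of 3, log2 fold change 3.05 ± 0.42, adjusted p = 0.00041). In the same comparison 4 of 16 glycogen genes were higher, namely Pygm, Pgm1, Ppp1r3c and Stbd1, and none was lower. Dgat2, the last step of triglyceride synthesis, and Lpin1 were higher, and the glycerol kinase gene Gk was lower (-0.53 ± 0.13, adjusted p = 0.011). Of the 6 adipocyte markers, which matter because Gpd1 is abundant in fat, Adipoq, Plin1, Fabp4, Cidec and Lep stayed at or below 0.377 TPM in every library, and Pparg reached 13.4 TPM. Of the 8 leukocyte markers, Cd68 reached 4.42 TPM and Laptm5 0.749 TPM, Ptprc and Tyrobp stayed at or below 0.740 and 0.166 TPM, and Adgre1 was at 0 in every library.

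To place the 10 genes in differentiation, cultures on plastic were compared at day 4 and day 0. All 10 were higher at day 4 (edgeR, adjusted p under 0.05), where 30.2% of all genes were called higher. Trim7 and Mtus1 changed least, with log2 fold changes of 0.47 ± 0.10 and 0.84 ± 0.08, and both were already expressed at day 0, at 5.67, 7.65 and 6.98 TPM and at 18.2, 21.8 and 21.4 TPM. The other 8 had log2 fold changes of 2.42 (Traf3ip3) to 5.87 (Cmya5). For Cmya5 and Sohlh2 the day 0 libraries held only 7 and 6 counts in all, so the fold is better given as a ratio of counts, 56.6 (95% interval 27.3 to 141) for Cmya5 and 41.6 (18.9 to 114) for Sohlh2. These intervals cover counting error only. Padi2 was at 65.6, 65.2 and 68.8 TPM at day 4, against 2.10, 1.89 and 1.45 TPM at day 0. All 3 day 4 libraries were far above all 3 day 0 libraries. The call for Trim7 was lost with limma on log2(TPM + 1), where its adjusted p was 0.34.

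From day 4 to day 7 on plastic, Cmya5, Lctl, Igfn1 and Sohlh2 rose further, where 6.47% of all genes were called higher. Cmya5 changed by 1.44 ± 0.21 on the log2 scale (adjusted p = 0.00028), Lctl by 0.77 ± 0.12 (adjusted p = 0.00060), Igfn1 by 0.61 ± 0.17 (adjusted p = 0.021, lost without plastic library 1 or 3 of day 4 or library 3 of day 7) and Sohlh2 by 0.60 ± 0.13 (adjusted p = 0.0064). Gpd1 alone was called lower, with a log2 fold change of -0.49 ± 0.15 (adjusted p = 0.037), where 8.38% of all genes were called lower. In TPM the Gpd1 groups overlapped, with 3.44, 5.03 and 3.76 TPM at day 7 and 3.51, 5.13 and 5.03 TPM at day 4. Its call was lost without plastic library 2 or 3 of day 4 and without plastic library 1 or 3 of day 7. By day 7 on patterned gelatin all 10 genes were above day 0 (34.3% of all genes), with log2 fold changes of 0.68 ± 0.08 for Mtus1, 1.22 ± 0.10 for Trim7, 2.66 ± 0.16 for Traf3ip3 and 4.17 to 7.99 for the others. These comparisons share the day 0 libraries with the ones on plastic.

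Primary myoblasts were used to see the same genes in cells that are not an established line. At day 4, 9 of the 10 were higher than at day 0 (edgeR, adjusted p under 0.05), where 20.2% of 14360 genes were called higher. At day 7 again 9 were higher, where 22.3% were called higher. Padi2 was the exception at both times, with log2 fold changes of 2.12 ± 0.77 (adjusted p = 0.054) and 1.67 ± 0.76 (adjusted p = 0.11), although its day 4 and day 7 libraries all lay above those of day 0. In 10 of 10 genes the groups did not overlap in TPM at either time, which held for 21.4% and 22.8% of all genes. With the replicate number as a block Padi2 passed at both times (edgeR, adjusted p = 0.000615 and 0.0015), and it passed without the libraries numbered 3 as well (2.01 and 1.54, adjusted p = 7.7e-05 and 0.00028). Without those libraries all 10 genes were called higher than at day 0 at both times. Mtus1 lost its day 4 call without any 1 of the 6 libraries (0.054 to 0.13) and its day 7 call without day 7 library 1 (0.055) or day 0 library 2 (0.054), and Trim7 lost its day 4 call without library 2 or 3 of day 4 or library 1 or 2 of day 0 (0.089 to 0.11). Between day 7 and day 4 edgeR called 0% of the genes, none of the 10 among them (666 genes had p below 0.05 before adjustment, and DESeq2 passed 58). In TPM the day 7 libraries lay above all day 4 libraries for Nup210 and Trim7 (4.71% of all genes) and below them for Igfn1 and Traf3ip3 (4.6%).

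The largest change in primary cells was that of Cmya5, at 0.143, 0.155 and 0.0189 TPM at day 0, 36.1, 61.2 and 9.28 TPM at day 4 and 83.4, 89.4 and 10.7 TPM at day 7. Library 3 was far below the other 2 at each time, and the log2 fold change from day 0 was 8.46 ± 1.19 at day 4 (adjusted p = 0.00065) and 9.27 ± 1.22 at day 7 (adjusted p = 0.00039). Traf3ip3 was at 4.00, 1.72 and 2.21 TPM at day 0, 49.4, 62.2 and 51.5 TPM at day 4 and 39.1, 46.8 and 38.9 TPM at day 7. All 3 libraries of day 4 and of day 7 were far above those of day 0 here (log2 fold change 4.30 ± 0.21 at day 4 and 3.90 ± 0.21 at day 7, adjusted p = 8.8e-06 and 8.1e-06). Nup210 was at 6.79, 7.76 and 5.67 TPM at day 7 and at 0.201, 0.0957 and 0.0246 TPM at day 0 (5.20 ± 0.56, adjusted p = 0.00013). Its day 0 libraries held 37 counts in all, and its ratio of counts was 31.8 (95% interval 22.9 to 45.4) at day 7. Without the libraries numbered 3 the log2 fold changes were 8.45 at day 4 and 9.32 at day 7 for Cmya5, 4.19 and 3.88 for Traf3ip3, and 4.90 at day 7 for Nup210. Lctl had 2 counts in all at day 0, with 0 in libraries 1 and 3, and its ratio of counts was 71.5 (95% interval 19.4 to 596) at day 4 and 115 (31.5 to 956) at day 7.

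Gpd1 in primary cells split by library at day 7. It was at 10.8, 10.9 and 2.41 TPM at day 7 and at 3.47, 4.12 and 3.59 TPM at day 4. Day 7 libraries 1 and 2 thus lay above all day 4 libraries, and day 7 library 3 lay below them. Without the libraries numbered 3 it was the only one of the 10 genes called between day 7 and day 4 (log2 fold change 1.49, adjusted p = 0.024, chosen after seeing the data). Library 3 was below both others at day 7 in 8 of the 10 genes, the exceptions being Mtus1 and Igfn1, and in Igfn1 it was above both. Igfn1 was at 5.07, 6.51 and 7.91 TPM at day 7, below all 3 day 4 libraries at 11.9, 8.89 and 18.1 TPM, a difference that did not pass the test (edgeR, adjusted p = 0.9995, and at least 0.27 under every alternative). The day 0 levels were 3.26, 1.20 and 1.79 TPM, with log2 fold changes of 2.73 ± 0.45 at day 4 (adjusted p = 0.0014) and 1.71 ± 0.43 at day 7 (adjusted p = 0.011). Without the libraries numbered 3 these were 2.21 and 1.46.

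**Figure D3:**
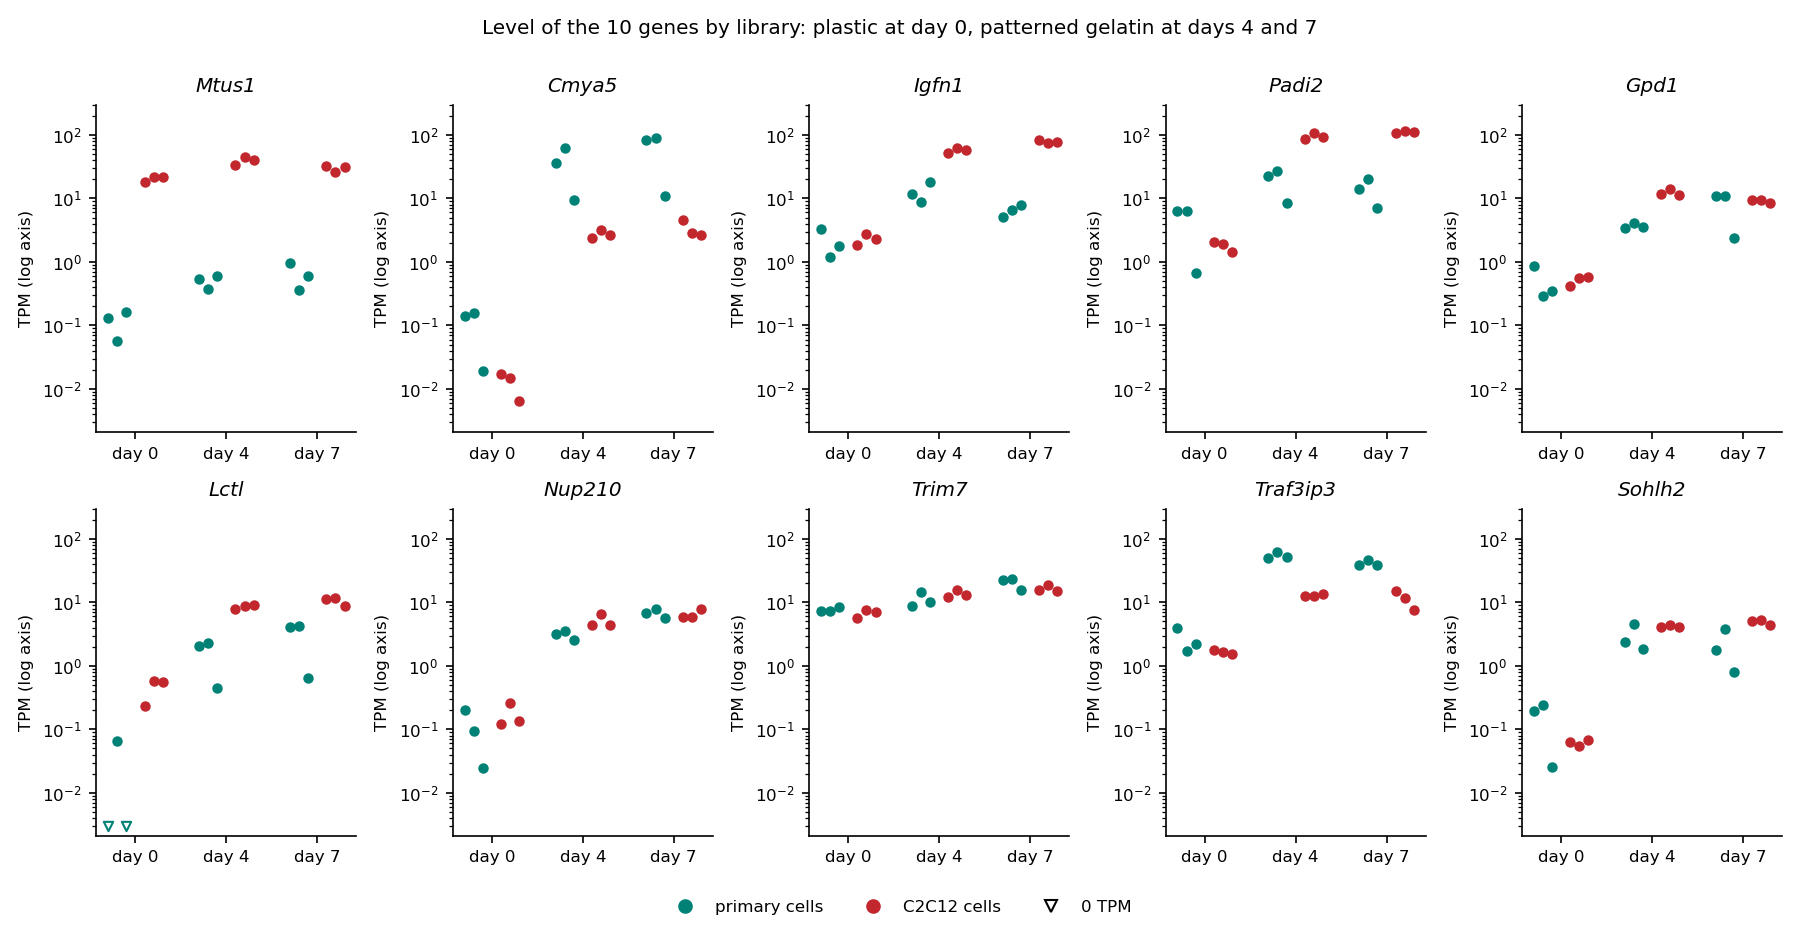
TPM (log axis) of the 10 genes in each library of primary and C2C12 cells at day 0 (labelled plastic) and at days 4 and 7 on patterned gelatin. Mtus1 stays below 1 TPM in every primary library and above 18 TPM in every C2C12 library, Cmya5 and Traf3ip3 lie higher in primary cells at days 4 and 7, and open triangles mark libraries at 0 TPM.

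On the same patterned gelatin at day 7, the primary cells were then set against C2C12 cells. Cmya5, Traf3ip3 and Trim7 were higher in primary than in C2C12 cells, where 25.1% of 15455 genes were called higher, and Mtus1, Igfn1, Padi2, Lctl and Sohlh2 were lower, where 26.4% were called lower. Mtus1 was at 0.954, 0.364 and 0.606 TPM in primary cells, against 32.1, 26.5 and 30.7 TPM in C2C12 cells (log2 fold change -5.24 ± 0.24, adjusted p = 1.4e-14). Igfn1 was at 5.07, 6.51 and 7.91 TPM in primary cells, against 83.4, 73.7 and 78.0 TPM in C2C12 cells (-3.33 ± 0.31, adjusted p = 3.8e-09). Padi2 was at 13.9, 20.4 and 6.95 TPM in primary cells, against 108, 117 and 112 TPM in C2C12 cells (-2.39 ± 0.47, adjusted p = 0.00017). In these 3 genes no primary library came near a C2C12 library. Without the primary libraries numbered 3 the log2 fold changes were -4.80 for Mtus1, -3.58 for Igfn1 and -2.01 for Padi2.

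The genes higher in primary cells were led by Cmya5, with 83.4, 89.4 and 10.7 TPM against 4.57, 2.84 and 2.66 TPM in C2C12 cells (log2 fold change 4.32 ± 0.58, adjusted p = 1.3e-06), so that even the low primary library 3 was above all C2C12 libraries. Traf3ip3 was at 39.1, 46.8 and 38.9 TPM in primary cells, against 15.1, 11.7 and 7.59 TPM in C2C12 cells (2.05 ± 0.16, adjusted p = 1.4e-10). Trim7 was at 22.7, 23.4 and 15.8 TPM in primary cells and overlapped with the C2C12 libraries (0.57 ± 0.16, adjusted p = 0.0050). Without the primary libraries numbered 3 these were 4.84 for Cmya5, 2.11 for Traf3ip3 and 0.72 for Trim7. Gpd1 did not pass the test (-0.08 ± 0.30, adjusted p = 0.85), and its value became 0.38 without the primary libraries numbered 3. The call for Sohlh2 (-1.11 ± 0.36, adjusted p = 0.012) was lost without primary library 1 (0.059) or 3 (0.095) but not without the 3 primary libraries numbered 3 (-0.70, adjusted p = 0.020), and Nup210 passed without the primary libraries numbered 3 (0.66, adjusted p = 0.0068). The 7 fibroblast markers summed to 6.75 to 73.0 TPM in the primary libraries, against 728 to 1153 TPM in the C2C12 libraries, and the 8 leukocyte markers, listed because of Traf3ip3, summed to 3.29 to 4.78 TPM and 1.41 to 2.20 TPM. Of these 8, Cd68 (2.90 TPM in primary and 1.16 TPM in C2C12 cells, log2 fold change 1.56 ± 0.39, adjusted p = 0.0016) and Laptm5 (0.583 TPM in primary and 0.0992 TPM in C2C12 cells, 2.14 ± 0.81, adjusted p = 0.031) were, like Traf3ip3, higher in primary cells. The mitochondrial share of counts was 4.66% to 6.95% in the primary libraries and 0.894% to 1.91% in the C2C12 libraries, and the part of these measures was not tested. Cell origin and culture history differ together here and cannot be told apart.

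Day 0 cells were compared to see which of these differences were present before serum withdrawal. Primary cells already held the myotube marker Myog at 719.2, 710.3 and 254.5 TPM then, and at 561.3, 504 and 239.9 TPM at day 7. The 12 myotube markers summed to 2238 to 3535 TPM in primary and 1228 to 1646 TPM in C2C12 cells at day 0. The part of this in the differences was not tested. At day 0 Mtus1 was at 0.130, 0.0561 and 0.165 TPM in primary cells, against 18.2, 21.8 and 21.4 TPM in C2C12 cells (log2 fold change -6.65 ± 0.29, adjusted p = 1.6e-15). The day 0 cells also differed in Lctl, with 2 counts in the 3 primary libraries and 21 in the 3 C2C12 libraries (ratio 0.081, 95% interval 0.0092 to 0.33), and the call for Lctl was lost without primary library 1 (adjusted p = 0.059) or 3 (0.066). These were 2 lower calls of the 10 genes, where 27.9% of all genes were called lower. Traf3ip3 (0.79 ± 0.19, adjusted p = 0.00092) and Padi2 (1.35 ± 0.50, adjusted p = 0.024) were higher in primary cells, where 29.6% of all genes were called higher. Padi2 lost its call without C2C12 library 2 (0.059) or 3 (0.067) and without primary library 1 (0.096) or 2 (0.13). Without the primary libraries numbered 3 the log2 fold changes were -6.65 for Mtus1, 0.88 for Traf3ip3 and 1.87 for Padi2, and the call for Lctl held (adjusted p = 0.0010). Cmya5, which led the higher genes at day 7, had 63 counts in the 3 primary libraries and 7 in the 3 C2C12 libraries at day 0 (ratio 7.66, 95% interval 3.51 to 19.8), and these groups did not overlap in TPM. It did not pass edgeR's test (log2 fold change 3.00 ± 1.39, adjusted p = 0.068), but it passed with DESeq2 (0.00062), with the length trend removed (0.049), without primary library 3 (0.040) and without the primary libraries of that number at all times (0.00017). Sohlh2 likewise passed only without primary library 3 (adjusted p = 0.032) or without all libraries of that number (log2 fold change 1.84, adjusted p = 0.012), against 0.12 with them. Over all alternatives the adjusted p ran up to 0.86 for Cmya5 and to 0.70 for Sohlh2. Igfn1 and Gpd1 did not pass the test at day 0, with adjusted p = 0.81 and 0.50.

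**Figure D4:**
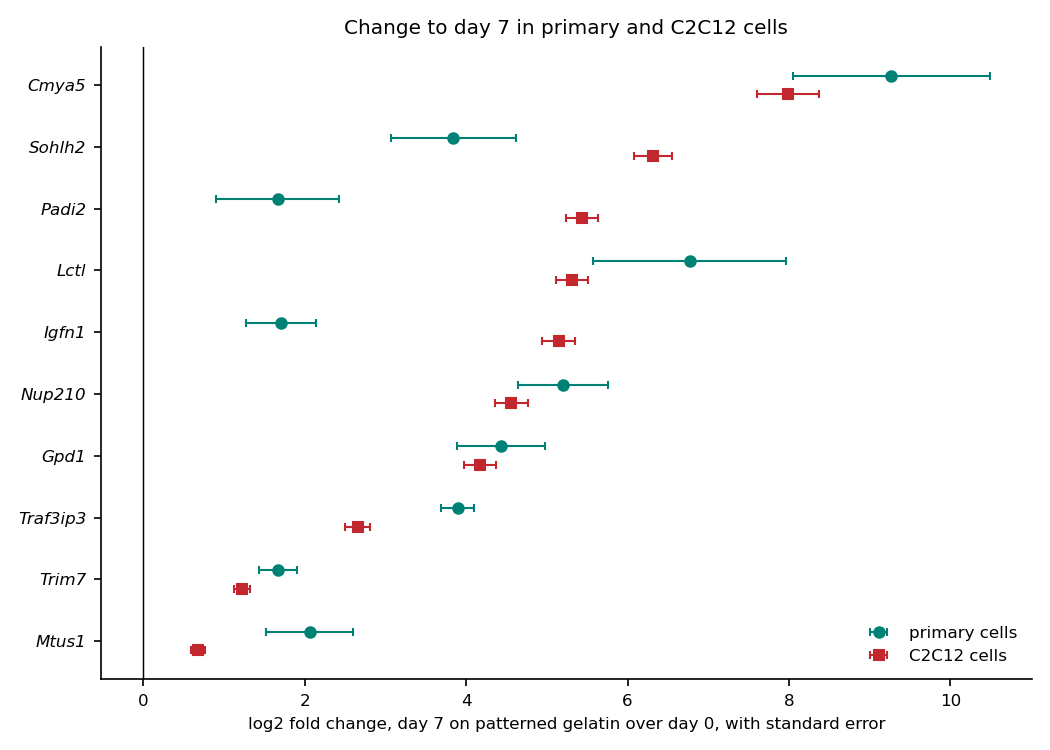
Log2 fold change of day 7 on patterned gelatin over day 0, with standard errors, in primary cells (circles) and C2C12 cells (squares). Padi2, Igfn1 and Sohlh2 lie at 1.67, 1.71 and 3.84 in primary cells, against 5.43, 5.15 and 6.32 in C2C12 cells, while Traf3ip3 and Mtus1 lie at 3.90 and 2.06 in primary cells, against 2.66 and 0.68 in C2C12 cells.

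The change from day 0 to day 7 on patterned gelatin was set side by side in the 2 cell types. By a test of the difference between these changes, added after seeing the data, Traf3ip3 and Mtus1 rose more in primary than in C2C12 cells, where 14% of 15455 genes were called higher, and Padi2, Igfn1 and Sohlh2 rose less, where 18.1% were called lower. The other 5 genes did not pass this test. The cell types did not start alike, since the day 0 primary libraries held more myotube marker transcript than those of C2C12 cells.

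Ordered by mean level over the 10 groups, each gene had its own sequence. Mtus1 was highest in patterned C2C12 cells at day 4 (39.5 ± 5.5 TPM, SD, n = 3), next to plastic at day 7 (35.7 ± 3.8 TPM), and these groups overlapped. All 7 C2C12 groups lay above the 3 primary groups. Cmya5 ran the other way, with primary cells at day 7 (61.2 ± 43.8 TPM) and day 4 (35.5 ± 26.0 TPM) above every C2C12 group and C2C12 cells at day 0 (0.0128 ± 0.0057 TPM) at the bottom. Igfn1 (95.5 ± 36.8 TPM) and Lctl (14.5 ± 0.5 TPM) were highest on plastic at day 7, and for Lctl this group did not overlap with the next, patterned C2C12 cells at day 7 (10.7 ± 1.6 TPM). Padi2 (112 ± 4 TPM) and Sohlh2 (4.89 ± 0.42 TPM) were highest in patterned C2C12 cells at day 7, overlapping with plastic at day 7. Gpd1 was highest in patterned C2C12 cells at day 4 (12.6 ± 1.5 TPM), above and not overlapping with patterned cells at day 7 (9.18 ± 0.51 TPM). Traf3ip3 was highest in primary cells at day 4 (54.4 ± 6.9 TPM), and Trim7 (20.6 ± 4.2 TPM) and Nup210 (6.74 ± 1.04 TPM) in primary cells at day 7, with the next groups of Trim7 and Nup210 overlapping. Every gene had its lowest mean in a day 0 group, which for Mtus1, Gpd1, Igfn1, Lctl and Nup210 was that of primary cells and for the other 5 that of C2C12 cells.

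Across the 18 C2C12 myotube libraries the 10 genes varied together only in part. Over their 45 pairs the Pearson correlation of log2(CPM + 1) had a median of 0.57 and ran from -0.24 to 0.85, with 27 pairs above 0.5 and 2 below 0. These libraries share their groups and days, which sets part of any such correlation, and it is given as a description. The genes most like each of the 10 were found over the same 18 libraries. Trim7 was most like Pygm (r = 0.96) and the calcium sensor gene Stim1 (0.96). Gpd1 was most like Gpt2 (0.94), a mitochondrial alanine aminotransferase, and Igfn1 most like Cacnb1 (0.90), a subunit of the muscle calcium channel. Mtus1 was most like Txlnb (0.88) and the thin filament gene Lmod3 (0.87), Lctl most like Pde4dip (0.92), and Cmya5 most like Mfn1 (0.89). For Padi2 the nearest was Alpk2 (0.88), for Nup210 Dnajc18 (0.90), for Sohlh2 Sh2d4a (0.87) and for Traf3ip3 Synpo2 (0.78), a Z disc protein. Traf3ip3 thus had the lowest best match of the 10.

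Some of these values may mix reads of other genes. Exons of 7 of the 10 genes overlap annotated genes on the other strand, among them Zwilch for Lctl and Gm13031 for Padi2, and whether the counting used strand is not given in the sources used here. No such overlap was found for Igfn1, Nup210 or Sohlh2. Long transcripts also shifted as a class. The 281 genes with transcripts of 8000 bases or more had a median log2 fold change of 0.10 for patterned over unpatterned gelatin at day 4 and of -0.09 at day 7. Over plastic at day 7 it was -0.27 for patterned and -0.18 for unpatterned gelatin. Cmya5, at 11850 bases, belongs to this class. With the length trend removed, the same counts of higher and lower calls were found among the 10 genes at day 7 on patterned gelatin against both unpatterned gelatin and plastic.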

How the data were processed

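RNA of 30 cultures was sequenced in paired ends on a NextSeq 500 after library preparation with a NEBNext kit. Per the labels and the study's methods, the authors ran Kallisto on mm10 transcripts and deposited, for each library and transcript, an estimated count, a length, an effective length and a TPM value (estimated counts scaled to transcript length and then to a fixed total per library). For the Kallisto version and the use of strand, the sources used here give nothing. The deposited estimated counts and deposited TPM values of 88198 transcripts were summed per gene with GENCODE M21 (GRCm38). Of these transcripts 86119 matched one of 30284 genes, and the 2079 others, holding 0.698% to 0.860% of the counts of a library, were left out.

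Gene sums were rounded and tested with edgeR 4.0.16 in R 4.3.3 (TMM scaling, filterByExpr, quasi-likelihood F test, Benjamini-Hochberg adjustment over all genes tested, threshold 0.05). One fit held all 21 C2C12 libraries (14852 genes), one the 9 primary libraries (14360 genes) and one all 30 (15455 genes). Standard errors were taken as the size of the log2 fold change over the root of its F statistic. The study's own differential tests were not used. Alternatives were DESeq2 1.42.0 (its test, and its size factors in edgeR), no filter, a fit of only the groups compared, a replicate block, limma 3.58.1 on log2(TPM + 1), removal of the trend with transcript length, and leaving out each library. Added after seeing the data were the test of the change to day 7 between cell types and the fits without the 3 primary libraries numbered 3. The scripts were tested on simulated data. Promoters were matched by symbol in a RefSeq table, which held 8 of the 10 genes.

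The same replicate numbers recur across groups. In primary cells same-numbered libraries deviated together (9 pairs, r = 0.21 to 0.78, and 8 of 9 libraries were closest to their own number), so the blocked value is printed beside a result whose call it changes.

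The 10 genes and all lists were chosen with earlier results of these data known. All 10 genes are named, and from each list at most 3 called genes per comparison, those of lowest adjusted p, are given with values, others by name only. Ratios of counts have exact 95% intervals, which cover counting error only. TPM is relative, and the median of all genes in TPM shifted by -0.23 (log2) between day 4 and day 0 on plastic, whereas medians of the fitted log2 fold changes lay near 0. TPM is also corrected for transcript length, which summed counts are not. Differences in TPM and in fitted counts can thus be of unlike size, as for Padi2, Nup210 and Pygm at day 7.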

Additional observations from a re-analysis of the deposited data

Results flagged for a closer look

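In 5 of the 10 genes the change from day 0 to day 7 on patterned gelatin differed between primary and C2C12 cells, by an interaction term in an edgeR fit of all 30 libraries that was chosen after seeing the data. Over all 15455 genes 14% were called higher and 18.1% lower by this term, and the 5 are read against those shares. Igfn1, the Z disc protein, was at 5.07, 6.51 and 7.91 TPM at day 7 in primary cells, and its interaction term was -3.42 on the log2 scale (SE 0.43, adjusted p = 2e-06). The deiminase gene Padi2 had a term of -3.73 (SE 0.68, adjusted p = 0.0002) and the transcription factor gene Sohlh2 one of -2.46 (SE 0.82, adjusted p = 0.024). Traf3ip3 had a term of 1.25 (SE 0.25, adjusted p = 0.0004), and the microtubule gene Mtus1 one of 1.41 (SE 0.40, adjusted p = 0.0091). A negative term means a smaller rise in primary cells, whose day 0 libraries held more myotube marker transcript than those of C2C12 cells.

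The term for Mtus1 was 0.02 (adjusted p = 0.95) with limma on log2(TPM + 1), and its call was lost without primary day 7 library 1 (0.82, adjusted p = 0.099) and in the fit of only the groups compared (adjusted p = 0.11). In primary cells Mtus1 was below 1 TPM at both times, a range in which log2(TPM + 1) compresses changes. The call for Sohlh2 was lost without C2C12 day 0 library 1 (adjusted p = 0.054) or 2 (0.069), without primary day 0 library 1 (0.054) or 2 (0.13) and in the fit of only the groups compared (0.095). Without the 3 primary libraries numbered 3 these 5 terms all passed, at -3.68 for Igfn1, -3.88 for Padi2, -2.54 for Sohlh2, 1.23 for Traf3ip3 and 1.86 for Mtus1, and Trim7 also passed (0.75, adjusted p = 0.0100). With limma Cmya5 passed as well (3.26, adjusted p = 0.0018), against 1.31 in edgeR, where it did not. Its day 0 means were 0.106 TPM in primary and 0.0128 TPM in C2C12 cells. At such levels log2(TPM + 1) compresses the rise, so the limma term does not measure the same change as that of edgeR. The causes were not tested.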

How the results depend on the processing

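For patterned over unpatterned gelatin at day 7, edgeR called 4 of the 10 genes higher, against 0 when the fit held only the groups compared, 1 with limma on log2(TPM + 1) and 2 to 5 when 1 library was left out. The count over all genes was 80, against 143 with a replicate block, 489 with DESeq2 and 0 with only the groups compared, and ran from 15 (without unpatterned library 1) to 880 (without patterned library 1). In C2C12 cells same-numbered libraries did not deviate together (63 pairs, r = -0.19 to 0.22, and 7 of 21 libraries were closest to their own number), so this block rests on a number alone. For patterned gelatin over plastic, 3 genes were called higher (0 with only the groups compared) and 2 lower (1 without a filter, with the block, where Lctl had an adjusted p of 0.051, or with limma, 0 with only the groups compared, and 1 to 2 when 1 library was left out), and 3542 of all genes were called, against 21 with only the groups compared and 2027 to 4429 when 1 library was left out. For unpatterned gelatin over plastic the 3 lower calls became 1 with only the groups compared, and the 514 calls over all genes became 70 in that fit, 953 with DESeq2, 204 with limma and 198 to 503 when 1 library was left out. On plastic between day 7 and day 4, 4 higher calls became 2 and the lower call 0 with only the groups compared, the lower call was lost with limma and numbered 0 to 1 when 1 library was left out, and 2205 calls over all genes became 997 to 2679. In primary cells between day 7 and day 4, 0 calls became 1 of the 10 genes and 124 of all genes without the 3 libraries numbered 3, and 58 of all genes with DESeq2. Between primary and C2C12 cells at day 0, 2 higher calls became 0 with only the groups compared or limma, 4 without the libraries numbered 3 and 1 to 4 when 1 library was left out, and 2 lower calls became 1 in the first pair of settings and 1 to 2 when 1 library was left out. At day 7 the 7951 calls over all genes between these cells became 4672 with only the groups compared. For the change to day 7 between cell types, 2 higher calls became 1 with only the groups compared and 1 to 3 when 1 library was left out, and 4947 calls over all genes became 2960 with only the groups compared.

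In the tested comparisons signs changed only for values that had not passed edgeR's test. For patterned over unpatterned gelatin at day 7, Traf3ip3 was -0.034 with limma and -0.062 to 0.16 when 1 library was left out. For patterned gelatin over plastic, Padi2 was 0.016 with the length trend removed, 0.25 with limma and -0.19 to 0.20 when 1 library was left out, and Igfn1 ran from -0.39 to 0.10. When 1 library was left out, Trim7 ran from -0.086 to 0.040 for unpatterned gelatin over plastic, Traf3ip3 from -0.016 to 0.16 on plastic between day 7 and day 4, and Mtus1 from -0.12 to 0.86 in primary cells between day 7 and day 4. Between primary and C2C12 cells at day 0, Igfn1 was -0.15 with limma and ran from -0.17 to 0.32, Nup210 was 0.32 without the libraries numbered 3 and ran from -0.90 to 0.34, and Trim7 was -0.025 without them and ran from -0.0015 to 0.21. At day 7 Gpd1 was 0.38 without the libraries numbered 3 and ran from -0.37 to 0.40 between these cells. For the change to day 7 between cell types, limma gave -0.34 for Gpd1 and -1.21 for Lctl (adjusted p = 0.031), and it also called Cmya5 (3.26, adjusted p = 0.0018), which had 1.31 in edgeR, and Gpd1 ran from -0.0057 to 0.77 when 1 library was left out. All day 0 libraries of these genes lay below 1 TPM, where log2(TPM + 1) compresses changes. Their limma and edgeR terms therefore do not measure the same change. Among the day 4 values, which have no test, limma gave 0.73, 0.69 and 0.55 for Cmya5, Lctl and Sohlh2 on patterned over unpatterned gelatin, 0.47, 1.15 and 0.19 for Mtus1, Cmya5 and Igfn1 on patterned gelatin over plastic, and 0.42, -0.68, -0.037 and 0.050 for Cmya5, Igfn1, Padi2 and Sohlh2 on unpatterned gelatin over plastic. When 1 library was left out, Cmya5 ran from 1.70 to 2.04 on patterned gelatin and from 0.62 to 0.95 on unpatterned gelatin over plastic. The causes were not tested. Depth limits Cmya5, Sohlh2, Lctl and Nup210 at day 0, where groups held 2 to 63 counts.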

Other observations

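Nup210 rose during differentiation, whereas most other nuclear pore genes fell or did not pass the test. Of 25 other nuclear pore genes, 19 were lower and none was higher at day 7 on patterned gelatin than at day 0 in C2C12 cells (edgeR, adjusted p under 0.05), where 33.4% of all genes were called lower, with a median log2 fold change of -0.62, against -0.03 over all genes. In primary cells 17 of the 25 were lower and none was higher, where 24.6% of all genes were called lower, with a median of -0.67, against -0.02 over all genes. Nup107, of the scaffold ring, averaged 19.3 TPM at day 7 and 43.5 TPM at day 0 in C2C12 cells (log2 fold change -1.10 ± 0.07, adjusted p = 1.4e-10), and Nup205, of the inner ring, averaged 17.4 TPM and 62.3 TPM in primary cells (-1.72 ± 0.10, adjusted p = 9.1e-06). Nup210 had log2 fold changes of 4.56 and 5.20 in the same comparisons.

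At day 7 on patterned gelatin, 24 of the 27 listed Z disc and costamere genes were above day 0 in C2C12 cells (median 3.45). Here 1, Pdlim7, was lower, and 34.3% of all genes were called higher. In primary cells 24 were higher and 1, Nebl, was lower (median 3.92), where 22.3% of all genes were called higher. In each cell type the 2 remaining genes did not pass the test. Glycogen genes were higher in 15 of 16 tested in C2C12 cells and in 16 of 17 in primary cells, and none was lower. Between the cell types at day 7, 15 of 17 glycogen genes were higher and 1, Phkb, was lower in primary cells. Over all genes 25.1% were called higher and 26.4% lower there. The deiminase genes Padi3 and Padi4 were, like Padi2, lower in primary than in C2C12 cells, but at low levels: Padi3 averaged 0.0646 TPM in primary cells and 1.04 TPM in C2C12 cells (log2 fold change -3.77 ± 0.51, adjusted p = 1.3e-06).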
